A study of Homo sapiens with 6 samples.

Results

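Here 7 matrix metalloproteinase (MMP) genes and the genes of 3 of their inhibitors, the TIMPs, were examined in MCF10A cells grown with or without growth factors. They were taken by name from the normalized count table, which lists 19198 genes, and the 10 genes are the secreted MMP1, MMP2, MMP11 and MMP13, the membrane-bound MMP14, MMP16 and MMP24, and TIMP1, TIMP2 and TIMP3. MCF10A is an established, non-tumorigenic line of human mammary epithelial cells. The control medium held 5% horse serum with insulin at 10 µg/ml, EGF at 20 ng/ml, cholera toxin at 100 ng/ml and hydrocortisone at 0.5 µg/ml, and the depleted medium kept the horse serum and lacked these additions. RNA-Seq of total RNA freed of ribosomal RNA was done for 3 control and 3 depleted samples, numbered 1 to 3 in each condition. The labels do not say whether these were separate cultures, so p-values measure the spread between these samples, and although the methods keep starved cultures in the depleted medium until they change shape, the exact day of these RNA samples is not given in the sources used here.

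MMPs are zinc-dependent endopeptidases that cut extracellular matrix proteins and other proteins at the cell surface. MMP1 and MMP13 are collagenases, MMP2 is a gelatinase that also cuts basement membrane collagen, and MMP11 (stromelysin-3) is activated by furin before it leaves the cell. MMP14, MMP16 and MMP24 have a transmembrane segment that holds them at the cell surface. TIMPs bind the active site of MMPs, and TIMP2 has a further role, since it bridges pro-MMP2 to MMP14 and so assists the activation of MMP2. TIMP1 is a poor inhibitor of the transmembrane MMPs, and TIMP3 is bound to the matrix and also inhibits ADAM and ADAMTS proteases. Induction of MMP genes is a known feature of epithelial to mesenchymal transition (EMT), which growth factor withdrawal was used to induce in these cells.

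The RefSeq promoter table (GRCh38.p14, from 250 bases before to 50 bases after the start) held 5 of the 10 genes, MMP11, MMP14, MMP24, TIMP1 and TIMP3, and had no entry for MMP1, MMP2, MMP13, MMP16 and TIMP2. Of these, 4 are shown, MMP11 and MMP24 because their transcripts went from a few reads to a clear signal, and MMP14 and TIMP1 because they were expressed in both conditions. Capitals mark GGGCGG (the GC box bound by Sp1) and TGTGGT (the core of the Runx site, the factor family that the study concerned) on either strand.
MMP11, chr22:23772599-23772898, plus strand: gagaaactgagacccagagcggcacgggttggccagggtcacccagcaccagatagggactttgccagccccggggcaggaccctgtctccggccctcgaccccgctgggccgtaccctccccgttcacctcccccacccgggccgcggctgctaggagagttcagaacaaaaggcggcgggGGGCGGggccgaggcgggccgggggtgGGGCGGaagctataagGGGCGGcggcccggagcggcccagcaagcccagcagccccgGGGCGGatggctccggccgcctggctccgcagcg
MMP24, chr20:35226440-35226739, plus strand: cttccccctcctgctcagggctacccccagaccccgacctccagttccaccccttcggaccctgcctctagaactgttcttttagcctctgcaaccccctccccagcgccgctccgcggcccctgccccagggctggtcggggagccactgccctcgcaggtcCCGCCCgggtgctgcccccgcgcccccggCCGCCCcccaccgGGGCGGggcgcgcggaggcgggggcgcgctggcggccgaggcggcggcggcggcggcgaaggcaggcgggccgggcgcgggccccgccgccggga
MMP14, chr14:22836335-22836634, plus strand: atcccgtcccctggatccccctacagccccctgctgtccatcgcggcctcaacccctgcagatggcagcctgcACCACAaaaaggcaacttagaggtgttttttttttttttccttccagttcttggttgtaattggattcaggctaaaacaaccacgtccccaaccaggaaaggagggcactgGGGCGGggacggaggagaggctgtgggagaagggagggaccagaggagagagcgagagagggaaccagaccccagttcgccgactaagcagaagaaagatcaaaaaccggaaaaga
TIMP1, chrX:47582186-47582485, plus strand: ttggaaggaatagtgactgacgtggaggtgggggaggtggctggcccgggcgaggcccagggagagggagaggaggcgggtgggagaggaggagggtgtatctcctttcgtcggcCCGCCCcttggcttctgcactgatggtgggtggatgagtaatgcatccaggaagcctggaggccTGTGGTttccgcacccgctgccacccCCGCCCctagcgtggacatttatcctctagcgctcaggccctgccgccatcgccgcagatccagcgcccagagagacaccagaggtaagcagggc
GGGCGG was found in 5 of the 5 promoters, at 4 places in MMP11, 3 in MMP24, 1 in MMP14, 2 in TIMP1 and 5 in TIMP3, and in 45.0% of all 35116 promoters of the table. TGTGGT was found in MMP14, with its first base at -177, and in TIMP1, at -71, and in 13.1% of all promoters. Neither the AP-1 site TGANTCA (7.71% of all promoters) nor TATAAA (11.5%) was found in the 5 windows. The marked letters do not overlap one another, and they are letter matches only.

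Depth was between 7472418 and 28672630 reads on genes per sample, so that 3 reads, taken here as the floor, correspond to 1.76 to 6.71 normalized counts, a limit of counting error only. Depleted replicate 1 stood apart from the other depleted samples, and control replicate 3 from the other controls. With group means removed, depleted replicate 1 correlated with depleted replicates 2 and 3 at -0.703 and -0.727, against 0.024 between those. Control replicate 3 correlated with control replicates 1 and 2 at -0.694 and -0.734, against 0.02 between those. The CDH1 (E-cadherin) of depleted replicate 1 was 609.6 normalized counts against 13234 and 13118 in depleted replicates 2 and 3. The latter values lay within the control range of CDH1 (12961 to 20039), and its log2 fold change was -1.67 (limma adjusted p = 0.448). The 9 mammary epithelial markers summed to 42319 in depleted replicate 1 against 118763 and 197364 in depleted replicates 2 and 3. In the control samples this sum was between 89386 and 200070, and limma called KRT15 and TP63 lower and none of the other 7 markers. The list did not move as one, since KRT14, KRT17, KRT18 and KRT8 had positive log2 fold changes (2.69, 2.44, 1.17 and 1.1) that did not pass. KRT17 was higher in each depleted sample than in any control sample and alone made up 123480 of the 197364 in depleted replicate 3, and KRT14, at 980.3, was highest in depleted replicate 1. The 9 fibroblast markers, among them COL1A1, COL3A1 and LUM, summed to between 814 and 1721 normalized counts in the controls against to between 15875 and 35317 in the depleted samples, highest in depleted replicate 1. Of the 8 tested, 6 were called higher without growth factors and 0 lower, and all 9 had each depleted sample above each control sample, THY1 at no more than 6.7 normalized counts. Testing needed a mean of 10 normalized counts over all samples. LUM, PDGFRA and PDGFRB, with control means of 1.58, 0.941 and 6.95, reached it only through the depleted samples. Among all genes tested, 4.36% were called higher and 1.97% lower, and 13.5% had each depleted sample above each control sample. Of the 5 leukocyte markers CD3E, CD68 and CD79A were not in the table, PTPRC was 13.8 or lower in every sample, and the list summed to 273 to 884 in the controls and 86.5 to 656 in the depleted samples, mostly CD14. Of the 4 endothelial markers TEK was not in the table, CDH5 was called higher, and the sums were 100.3 to 1009 and 240.0 to 1610. CDH5, with a control mean of 5.93, also reached the mean of 10 only through the depleted samples. The rule by which genes were kept in the table is not known here, so absence is not read as no expression. The part of these markers in the changes below was not tested, and in bulk RNA more cells of a type and more RNA per cell cannot be told apart.

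Transcripts of 6 of the 10 genes, MMP1, MMP2, MMP11, MMP16, MMP24 and TIMP2, were higher without growth factors, and 0 were called lower. The test was limma on log2(normalized count + 1). It covered the 16988 genes whose mean reached 10 normalized counts, all 10 members among them, and calls needed a 2-fold change and an adjusted p (Benjamini-Hochberg) under 0.05. MMP1, MMP11, MMP24 and MMP13 reached this mean only through the depleted samples, with control means of 0.0, 1.33, 0.976 and 9.64. They could thus in effect only be called higher or not called. Over all genes tested, 4.36% were called higher and 1.97% lower. The same 6 genes had all their depleted samples above all their control samples, as in 13.5% of all genes tested. MMP13, MMP14, TIMP1 and TIMP3 had positive log2 fold changes that did not pass the threshold. MMP2 and MMP14 are also in networks that the study drew from its own calls on these samples, so their direction is not independent evidence.

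**Figure D1:**
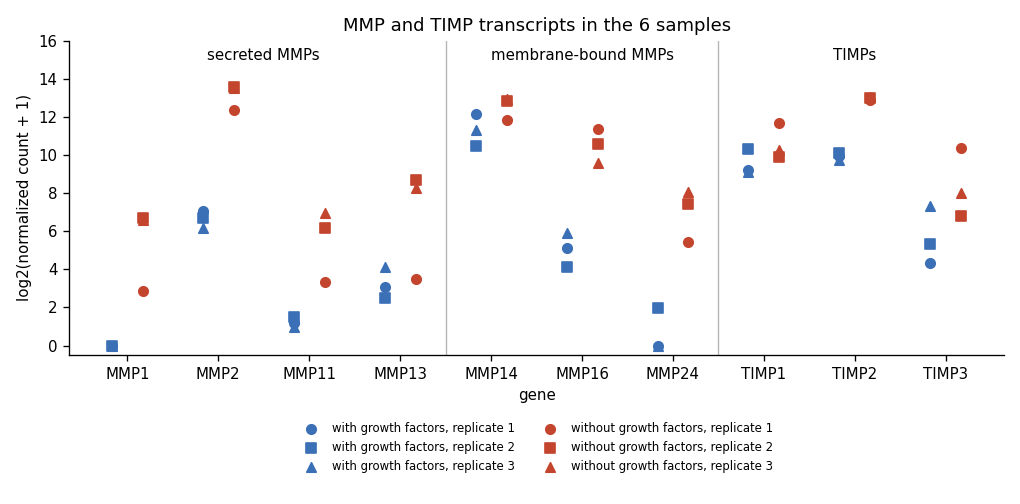
Each point is the log2(normalized count + 1) of one gene in one sample, blue with and red without growth factors, with the replicate number given by the symbol. MMP1, MMP2, MMP11, MMP16, MMP24 and TIMP2 separate fully between conditions, while for MMP13 depleted replicate 1 lies among the control samples.

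MMP2, the gelatinase, is on chromosome 16 of hg38 from 55389700 to 55506691 (plus strand). It had 132.8, 101.9 and 71.8 normalized counts in the 3 control replicates and 5181.4, 12237.3 and 11624.7 in depleted replicates 1 to 3. The lowest depleted sample was far above the highest control sample. The means were 102 ± 30.5 and 9681 ± 3909 normalized counts (SD, n = 3 in each condition), a 94.7-fold ratio of group means, with a log2 fold change of 6.5 (SE 0.41, limma adjusted p = 3.2e-04). MMP2 was called in 18 of 18 alternative analyses, with log2 fold changes from 6.27 to 6.90.

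MMP1, interstitial collagenase, lies on chromosome 11 from 102789401 to 102798160 (minus strand) and was listed at 0 reads in every control sample. The depleted replicates 1 to 3 had 6.4, 101.0 and 93.9 normalized counts, or 7, 154 and 42 reads, so that 1 depleted sample was close to the floor and the others were clearly above it. With a floor of 3 reads per control library the depleted mean of 67.1 ± 52.7 normalized counts (SD, n = 3) was at least 23.8-fold higher (limma adjusted p = 0.0214). This call was lost when either of control replicates 1 and 2 or of depleted replicates 2 and 3 was left out (limma adjusted p from 0.0609 to 0.115), and over the 17 alternatives that tested MMP1 the adjusted p ran from 1.1e-06 to 0.115.

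MMP11, on chromosome 22 from 23768226 to 23784316 (plus strand), had 1, 3 and 1 reads in the controls and 10, 110 and 55 in the depleted samples. In normalized counts the depleted samples had 9.2, 72.1 and 123.0, each above every control sample, the highest of which was 1.8. The ratio of summed reads, corrected for library size, was 40.2 with an exact 95% counting interval from 16.9 to 125.0, and the limma adjusted p was 0.0351. Such counting intervals, here and below, come from pooled reads and leave out the spread between samples. Like MMP1, MMP11 lost its call when control replicate 1 or 2 or depleted replicate 2 or 3 was left out (limma adjusted p from 0.0804 to 0.16). It was called in 10 of 17 alternatives.

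MMP13, collagenase-3, lies near MMP1 in the MMP gene cluster of chromosome 11, from 102942995 to 102955732 (minus strand). It had 7.5, 4.7 and 16.7 normalized counts in the controls against 10.1, 409.1 and 306.3 in the depleted samples. Depleted replicate 1 thus lay within the range of the controls. The log2 fold change was 3.56 (SE 1.28, limma adjusted p = 0.16), and without depleted replicate 1 it was 5.22 (limma adjusted p = 0.00567). Over 18 alternatives the adjusted p ran from 4.8e-05 by DESeq2 to 0.466, and MMP13 was called in 2 of them.

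Among the membrane-bound enzymes, MMP16 (MT3-MMP), on chromosome 8 from 88032011 to 88328025 (minus strand), had 33.8, 16.4 and 59.0 normalized counts in the controls. The depleted samples had 2660.7, 1516.5 and 760.2, all above the controls, and depleted replicate 1 was the highest of them. The log2 fold change was 5.46 (SE 0.59, limma adjusted p = 0.00177), and 18 of 18 alternatives called the gene.

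MMP24 (MT5-MMP), on chromosome 20 from 35226690 to 35276998 (plus strand), had 0, 5 and 0 reads in the controls and 46, 262 and 118 in the depleted samples. The depleted samples had 42.1, 171.8 and 263.8 normalized counts, and the groups did not overlap. The ratio of summed reads corrected for library size was 97.9 (exact 95% counting interval 41.6 to 303), with a limma adjusted p of 0.0052, and 18 of 18 alternatives called the gene. MMP24OS overlaps MMP24 on the other strand and had 265.7, 396.6 and 352.2 normalized counts in the controls against 658.1, 366.5 and 532.2 in the depleted samples. The kit marks strand, but the strand setting of the counting is not stated, so reads of this pair cannot be told apart with certainty.

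MMP14 (MT1-MMP), the activator of pro-MMP2, is on chromosome 14 from 22836560 to 22849041 (plus strand) and was already abundant with growth factors. Control replicates 1 to 3 had 4584.4, 1431.8 and 2565.6 normalized counts and depleted replicates 1 to 3 had 3709.7, 7233.9 and 7743.1. Depleted replicate 1 was below control replicate 1, so the conditions overlapped. The log2 fold change was 1.21 (SE 0.48, limma adjusted p = 0.202), and MMP14 was called in 0 of 18 alternatives, edgeR and DESeq2 among them, with log2 fold changes from 0.79 to 1.63 and an unadjusted limma p of 0.0344.

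TIMP2, on chromosome 17 from 78852977 to 78925387 (minus strand), was the most even of the 10 genes. It had 997.6, 1105.5 and 861.8 normalized counts in the controls against 7423.9, 8020.7 and 8565.9 in the depleted samples. The means were 988 ± 122 and 8004 ± 571 normalized counts (SD, n = 3 in each condition). The log2 fold change, 3.02 (SE 0.26, limma adjusted p = 7.3e-04), lay between 2.89 and 3.11 in 18 alternatives, each of which called it.

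TIMP1, on the X chromosome from 47582408 to 47586789 (plus strand), had 589.0, 1252.5 and 557.8 normalized counts in the controls against 3311.5, 950.7 and 1247.7 in the depleted samples. Only depleted replicate 1 was above all of the controls. The log2 fold change was 1.08 (SE 0.51, limma adjusted p = 0.293), and 0.55 without depleted replicate 1. TIMP1 was called in 0 of 18 alternatives (adjusted p from 0.156 to 0.596), with an unadjusted limma p of 0.0665.

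TIMP3, on chromosome 22 from 32801705 to 32863041 (plus strand), had 18.8, 39.8 and 159.4 normalized counts in the controls against 1317.1, 112.1 and 257.1 in the depleted samples. Depleted replicate 2 was below control replicate 3, and depleted replicate 1 was the highest sample. The log2 fold change was 2.74 (SE 1.0, limma adjusted p = 0.164), and 1.76 without depleted replicate 1 (limma adjusted p = 0.369). DESeq2 was the only one of 18 alternatives to call TIMP3 (adjusted p = 0.0128), and the adjusted p ranged up to 0.413. TIMP3 lies within SYN3, which is on the other strand and had 121.6, 76.2 and 141.7 normalized counts in the controls against 5.5, 4.6 and 15.7 in the depleted samples. As for MMP24 and MMP24OS, reads of this pair cannot be told apart with certainty.

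**Figure D2:**
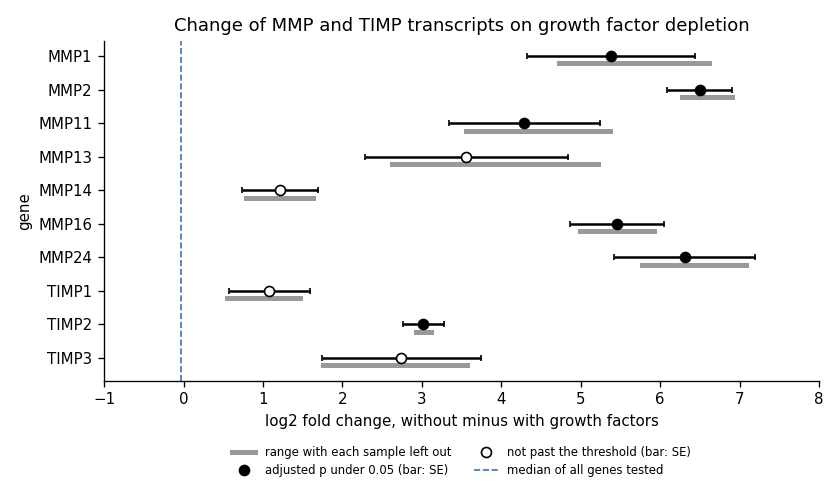
Log2 fold changes, without minus with growth factors, of the 10 genes with their standard errors from limma, filled where called, and below each the range over the 6 fits that left out a sample. All points are above the median of all genes tested (-0.03), and TIMP2 has the narrowest error and range.

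By class, among the 10 listed genes, 3 of 4 secreted MMPs, 2 of 3 membrane-bound MMPs and 1 of 3 TIMPs were called higher. The median log2 fold change was 4.83 for the secreted MMPs (3.56 to 6.5), 5.46 for the membrane-bound MMPs (1.21 to 6.31) and 2.74 for the TIMPs (1.08 to 3.02), beside -0.03 over all genes tested, of which 48.1% had a positive value. The difference between secreted and membrane-bound MMPs was therefore small beside the spread within each class. The order of the MMP classes depended on the analysis. The secreted median was above the membrane-bound one by edgeR (6.08 against 5.54), by DESeq2 (6.11 against 5.51) and without depleted replicate 1 (5.99 against 5.02), equal to it with a pseudocount of 0.5 (5.48 each), and below it with a pseudocount of 10 (2.69 against 3.66). The listed genes were chosen with earlier results of these data known. Of the 6 other MMP genes tested 0 were called, and their median log2 fold change was 0.04. These counts and medians therefore describe the listed genes, not whole classes.

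Levels of different genes were compared after division by the length of merged exons, as normalized counts per kilobase. In the control samples MMP14 (mean 619 per kilobase, 310 to 992) and TIMP1 (553, 386 to 866) were the highest and overlapped each other, followed by TIMP2 (159, 139 to 178), which lay below both. MMP2 (21.7), with every sample above those of MMP13 (3.41) and MMP16 (3.01), overlapped with TIMP3 (15.8, 4.09 to 34.7), which also overlapped with MMP13 and MMP16, and MMP11, MMP24 and MMP1 were below 0.7 per kilobase in every control sample. In the depleted samples MMP2 (mean 2057, 1101 to 2600), MMP14 (1347, 802 to 1675), TIMP2 (1289, 1196 to 1380) and TIMP1 (1270, 657 to 2290) formed a leading group within which the samples overlapped. The other 6 genes followed with means between 13.2 and 136 per kilobase, and each of their samples, at most 287, was below every sample of the leading group. MMP2 thus overlapped with TIMP3 in the controls and with MMP14 and TIMP2 in the depleted samples.

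The make-up of the transcripts of the 7 listed MMP genes changed with it. On the per-length scale MMP14 was 96.7%, 92.3% and 95.5% of the summed 7 MMP genes in control replicates 1 to 3 and 37.5%, 34.6% and 37.8% in the depleted replicates. MMP2 was 2.75%, 6.46% and 2.63% in the controls and 51.4%, 57.5% and 55.7% in the depleted samples. The secreted to membrane-bound ratio of summed levels was 0.0313, 0.0759 and 0.0381 in the controls and 1.07, 1.62 and 1.47 in the depleted samples, so the conditions did not overlap. The ratio of summed MMP to summed TIMP levels, in contrast, was 1.79, 0.319 and 1.04 in the controls and 0.567, 2.29 and 1.93 in the depleted samples, which overlapped. TIMP2 made up 28.1%, 16.9% and 24.8% of the TIMP sum in the controls, and 31.7%, 65.5% and 60.0% in the depleted samples. The MMP sums leave out MMPs outside the list. Of these, MMP28, MMP7, MMP15 and MMP17 had control means of 125, 119, 39.1 and 23.2 per kilobase, above that of MMP2 (21.7). MMP19 (8.54) and MMP25 (3.26) were below it. MMP7 was 317 in control replicate 1 and 29.0 and 10.2 in the others. The shares and ratios thus describe the listed genes, not all MMP transcripts.

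**Figure D3:**
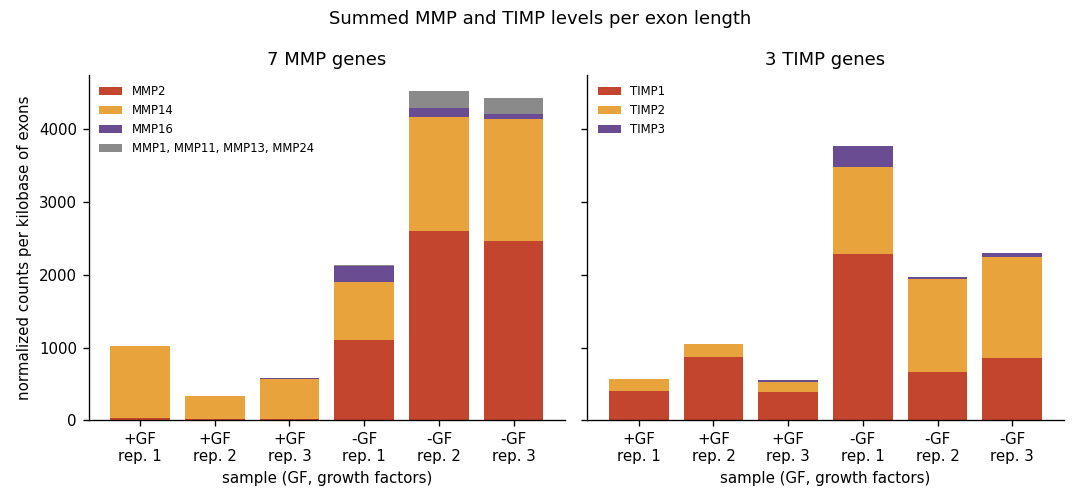
Stacked bars of normalized counts per kilobase of merged exons in each sample, for the 7 MMP genes and the 3 TIMP genes on one scale that starts at 0. MMP14 fills nearly the whole bar of the 7 listed MMP genes in each control sample, and MMP2 is the larger part in each depleted sample. Depleted replicate 1 has the largest TIMP bar (3772 per kilobase). MMP genes outside the list are not drawn.

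Ratios within a sample, from which library size largely cancels, were taken for 3 pairs known from biochemistry. The log2 ratio of MMP2 to TIMP2 was -2.90, -3.43 and -3.57 in the controls and -0.52, 0.61 and 0.44 in the depleted samples, a difference of 3.47 with no overlap. The log2 ratio of MMP14 to TIMP2 was 2.20, 0.37 and 1.57 in the controls and -1.0, -0.15 and -0.15 in the depleted samples, a difference of -1.81, again with no overlap. Relative to TIMP2, MMP2 was thus higher and MMP14 lower in each of the 3 depleted samples than in any control sample. For MMP1 to TIMP1 the control values of -9.20, -10.29 and -9.13 were set by the pseudocount, since MMP1 had no reads, and the depleted values were -8.80, -3.22 and -3.72. With a pseudocount of 10 the MMP1 to TIMP1 difference dropped from 4.29 to 1.45, and depleted replicate 1, at -7.66, was below every control sample (-6.98 to -5.83), so its test is not read here. MMP2 to TIMP2 and MMP14 to TIMP2 each had an exact two-sided permutation p of 0.1, the smallest that 3 samples against 3 can give, and 0.1 after adjustment over the 3 pairs.

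**Figure D4:**
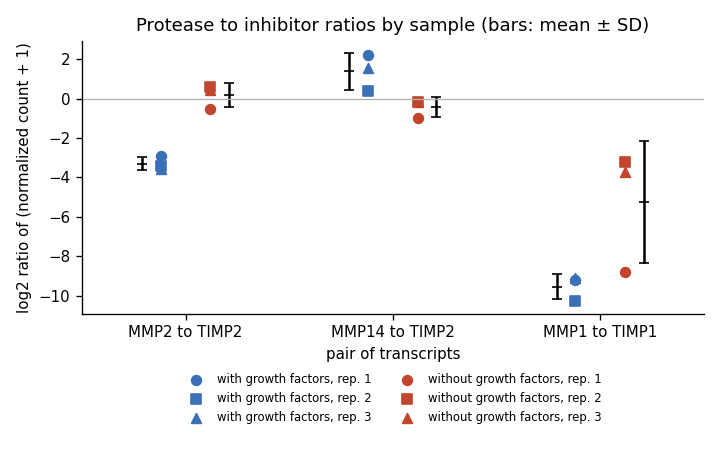
The log2 ratio of (normalized count + 1) for 3 protease and inhibitor pairs in each sample, blue with and red without growth factors, with bars of mean ± SD (n = 3). MMP2 to TIMP2 is higher and MMP14 to TIMP2 lower in every depleted sample, and depleted replicate 1 is close to the controls for MMP1 to TIMP1.

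The depleted samples were not alike. On the log2(normalized count + 1) scale, depleted replicate 1 was below the mean of depleted replicates 2 and 3 by more than 1 for MMP13 (-5.00), MMP1 (-3.73), MMP11 (-3.23), MMP24 (-2.31), MMP2 (-1.20) and MMP14 (-1.01). It was above them for TIMP3 (2.95), TIMP1 (1.6) and MMP16 (1.31), and near them for TIMP2 (-0.16). Over all genes tested this difference had a median of 0.04 and quartiles of -0.38 and 0.43, and depleted replicates 2 and 3 differed from each other by 1.19 or less for each of the 10 genes. Depleted replicate 1 thus had the lowest depleted level of 6 of the 7 MMPs and the highest of TIMP1 and TIMP3. It is the sample with the lowest CDH1 and the highest fibroblast marker sum, and their part in this was not tested.

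**Figure D5:**
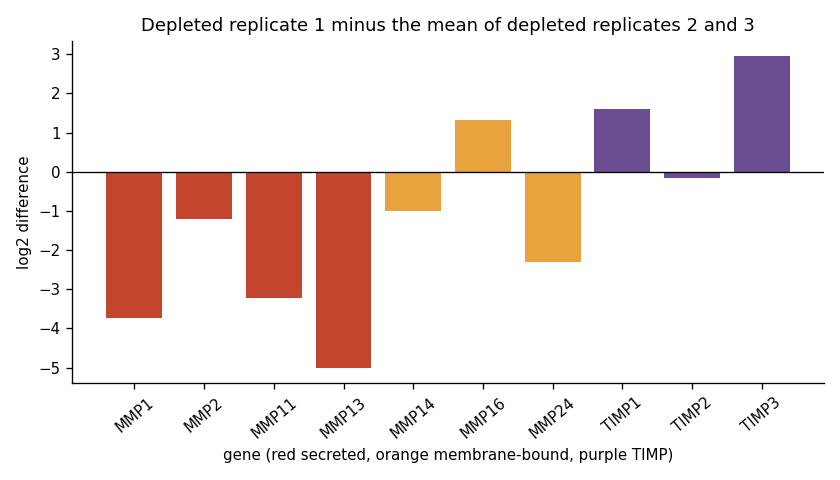
Bars give the difference of log2(normalized count + 1) between depleted replicate 1 and the mean of depleted replicates 2 and 3 for each gene, with no error since it is a single sample. The 4 secreted MMPs are below 0, TIMP1 and TIMP3 are above 0, and MMP16 is the only MMP above 0.

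Of 17 other MMP and TIMP genes looked up, 6 were in the table and MMP3, MMP8, MMP9, MMP10, MMP12, MMP20, MMP21, MMP23B, MMP26, MMP27 and TIMP4 were not. As for the markers, absence is not read as no expression. By limma 0 of the 6 were called, with 1 at an unadjusted p under 0.05, while edgeR called 0 and DESeq2 1. That gene was MMP7 (matrilysin), an epithelial MMP, which had 735.7, 67.4 and 23.6 normalized counts in the controls against 0.9, 15.7 and 0.0 in the depleted samples. The depleted samples of MMP7 were all below its control samples, and the log2 fold change was -5.08 (SE 1.41, limma adjusted p = 0.0739). With the replicate number as a block the limma adjusted p of MMP7 was 0.0221, and over 18 alternatives it ran from 0.0221 to 0.235. MMP28 (epilysin) had 359.7, 599.9 and 234.1 normalized counts in the controls and 531.8, 23.6 and 15.7 in the depleted samples. Depleted replicate 1 again differed from the others here, and without it the log2 fold change of MMP28 went from -2.62 (limma adjusted p = 0.258) to -4.20 (limma adjusted p = 0.00602, the lowest of its 18 alternatives, which reached 0.685). The log2 fold changes of MMP15 (MT2-MMP, 1.17), MMP17 (MT4-MMP, 0.63), MMP19 (0.24) and MMP25 (MT6-MMP, -0.15) did not pass, with limma adjusted p of 0.484, 0.444, 0.928 and 0.957.

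Of 15 genes that regulate, anchor or clear MMPs, 15 were tested, 4 were called higher and 2 lower, with a median log2 fold change of 0.71. Among all genes tested, 4.36% were called higher and 1.97% lower, with a median of -0.03. The 4 that rose were PLAU, the urokinase that generates plasmin (log2 fold change 4.73), THBS2, ITGB3, an integrin subunit that can dock MMP2 at the cell surface, and TFPI2, a serine protease inhibitor. THBS2, ITGB3 and TFPI2, with control means of 1.25, 1.92 and 4.79, reached the mean of 10 normalized counts only through the depleted samples. They could thus in effect only be called higher or not called. Over the 3 control samples THBS2 had 3 reads, ITGB3 6 and TFPI2 20, so ratios of summed reads corrected for library size are given for them, with exact 95% counting intervals. These ratios were 99.6 (33.7 to 486) for THBS2, 51.7 (23.4 to 142) for ITGB3 and 12.8 (8.06 to 21.3) for TFPI2. PLAU went from 352 ± 127 to 9073 ± 2198 normalized counts (SD, n = 3 in each condition, limma adjusted p = 5.1e-04). The 2 that fell were proprotein convertases, PCSK5 (log2 fold change -2.73, limma adjusted p = 0.00827) and PCSK6 (-3.08, limma adjusted p = 0.0429), the latter called in 9 of 18 alternatives. Leaving out a sample ended the call of PCSK6 for each but control replicate 3 (limma adjusted p from 0.0506 to 0.139), that of TFPI2 for control replicate 1 and each depleted replicate (0.0613 to 0.0863), and that of ITGB3 for control replicate 1 and depleted replicates 2 and 3 (0.0564 to 0.0888). FURIN, the convertase that activates MMP11 and MMP14, had 1756, 1780 and 1584 normalized counts in the controls and 1959, 1785 and 2164 in the depleted samples, which did not overlap but gave a log2 fold change of only 0.20 (SE 0.25, limma adjusted p = 0.721). RECK, a membrane-anchored inhibitor of MMPs, had 134.1, 51.0 and 102.3 normalized counts in the controls and 244.4, 350.8 and 248.2 in the depleted samples. The groups of RECK did not overlap, but its log2 fold change of 1.63 had a limma adjusted p of 0.0702 (0.0105 to 0.263 over 18 alternatives).

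The ADAM and ADAMTS families, sister metalloproteinases that include targets of TIMP3, were represented by 18 of 28 genes looked up, of which 17 were tested. Absence of the others is again not read as no expression. Of the 17 tested, 4 were called higher and 1 lower, with a median log2 fold change of 0.92, beside 4.36%, 1.97% and -0.03 over all genes tested. ADAMTS12 had 0.0, 4.7 and 3.9 normalized counts in the controls and 1929.4, 1417.5 and 1198.5 without growth factors, a difference with a limma adjusted p of 5.0e-04. ADAM19 rose from 109 ± 88.0 to 5448 ± 3111 normalized counts (SD, n = 3 in each condition), with a limma adjusted p of 0.00241 and a log2 fold change of 5.68. ADAMTS6 was higher by 3.11 on the log2 scale (limma adjusted p = 0.00939, or 0.0523 without depleted replicate 2). ADAMTS1 had 1, 0 and 0 reads in the controls and 9, 125 and 74 in the depleted samples, a called rise (limma adjusted p = 0.0255). ADAM15 fell from 8046 ± 2751 to 2196 ± 381 normalized counts (limma adjusted p = 0.0194). The calls of ADAMTS1 and ADAM15 were both lost when control replicate 1 or 2 or depleted replicate 2 or 3 was left out (limma adjusted p from 0.061 to 0.124). ADAM10 and ADAM17, the main sheddases of the cell surface, had log2 fold changes of -0.30 and -0.40 with limma adjusted p of 0.688 and 0.578.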

How the data were processed

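RNA-Seq of 3 control and 3 growth factor-depleted samples of MCF10A cells was used, although the design text counts 2 replicates. Per the labels and the methods, the authors used cutadapt 1.6 for trimming, TopHat2 for alignment (hg38) and HTSeq 0.6 for counting against Gencode v22. They deposited a normalized signal, which is the count divided by a DESeq2 size factor, not by length. All values (100.0%) were whole multiples of the smallest value of their sample within 0.01 reads, so whole reads were recovered. Names, positions and merged exon lengths came from Gencode v44 on hg38, which named 18913 of 19198 genes.

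Tests used limma 3.58.1 in R 4.3.3 (eBayes with trend), with a pseudocount of 1. A log-scale test was used because the table is not of counts, whereas the study used DESeq2. The members and gene lists were chosen with earlier results of these data known. Alternatives were other pseudocounts, filters, scalings, a length and GC correction, the replicate block, each sample left out, and edgeR 4.0.16 and DESeq2 1.42.0 on recovered reads. The genes named are the 10 members, the other listed MMPs, FURIN, RECK, ADAM10, ADAM17, cell type markers, and the called genes of the other lists.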

Additional observations from a re-analysis of the deposited data

How the results depend on the processing

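Over 18 alternative analyses each of the 10 genes kept a positive log2 fold change wherever it was tested, and MMP1 and MMP11 were not tested at a minimum mean of 50. MMP2, MMP16, MMP24 and TIMP2 were called in 18 of 18, and the number of the 10 genes called lay between 4 and 7 with each sample left out. By edgeR it was 6, and by DESeq2 it was 8, MMP13 and TIMP3 among them. MMP1 and MMP11 also lost their calls with a pseudocount of 10 (adjusted p = 0.0733 and 0.0732) and with the length and GC correction combined with the replicate block (0.0556 and 0.1), and MMP11 with quantile normalization (0.0532). Leaving out a sample gave between 445 and 2483 called genes of the whole table, the most without control replicate 3, of which 307 to 1379 were higher. It gave 0 to 1 called among the other MMP and TIMP genes, 3 to 8 among the regulators, 2 to 6 among the ADAM and ADAMTS genes, and a TIMP median log2 fold change between 1.76 and 3.02, the lowest without depleted replicate 1. DESeq2 called 2112 genes (1287 higher), and the length and GC correction with the replicate block 690 (453 higher), against 1076 (741 higher) in the analysis reported. The cause was not tested. A minimum mean of 50 left 3 called regulators, since fewer genes were tested. A pseudocount of 10 gave a median log2 fold change of 2.69 for secreted and 3.66 for membrane-bound MMPs. DESeq2 and the replicate block each called 1 of the other MMP genes, MMP7. Same-numbered samples of the conditions correlated at -0.073, -0.283 and -0.323 after the group means were removed, so the numbers showed no pairing. The replicate block gave 967 called genes, 6 of the 10 members among them, and changed no other call named here except that of ADAMTS15 (adjusted p = 0.0068). The difference in MMP14 to TIMP2 lay between -2.32 and -1.40 and that in MMP2 to TIMP2 between 3.26 and 3.82 with each sample left out.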
